A study of Caenorhabditis elegans with 2 samples.

Results

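The vitellogenin genes of Caenorhabditis elegans, vit-1 to vit-6, encode the yolk proteins, and they are described here through the ELT-2 binding summits that lay on and around them in L3 larvae. All 6 were taken by name from the WBcel235 annotation, 6 of 19973 protein-coding genes on the nuclear chromosomes, and no measured value entered that choice. The data are peak lists from chromatin immunoprecipitation with an antibody against GFP, followed by sequencing, in whole hermaphrodites of strain OP56. The animals carried unc-119(ed3) III and the integrated transgene wgIs56, which adds a copy of ELT-2 with a GFP-FLAG tag at its C-terminus, and were collected at L3, 40 hours after synchronization as starved L1 larvae. Both samples, biological replicates 1 and 2, belong to this 1 group, so no conditions were compared and no test was run. The tagged protein is what was precipitated, from whole animals and from 1 transgenic line, and the control library behind the peak calls was not analysed here.

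Vitellogenins are large lipid-binding proteins made in the intestine of the adult hermaphrodite, secreted into the body cavity and taken up by growing oocytes through the receptor RME-2. ELT-2, a transcription factor of the GATA family, acts throughout the differentiated intestine, and GATA sites in the vit promoters are a classical model of intestine-specific, adult-specific transcription. Yolk genes are not strongly transcribed in L3 larvae, whose intestine already contains ELT-2. Only the L3 stage was profiled, so the part that stage plays in any value given here was not tested.

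The 4 deposited ce11 lists differ in how much they let through. The list that passed the filter on irreproducible discovery rate (IDR), a test of how well peak ranks repeat between replicates, held 9198 peaks with signals, the authors' value per peak, of 74.97 to 9719 and a median of 203.9. The other 3 lists contain peaks together with background: 30000 in the pooled list, 28033 in replicate 1 and 30000 in replicate 2, with lowest signals of 14.3, 9.35 and 7.24. The IDR-passing peaks were the 9198 strongest of the pooled list. A summit is the single base the peak caller marked as the centre of a peak. The scale of the signal depends on the list, so signals were not compared between lists, and ranks describe a peak within its own list only.

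Of these genes, 5 lie on chromosome X and vit-6 lies on chromosome IV (coordinates are on ce11, counted from 1). vit-1 (WBGene00006925, X 7727889 to 7733168) and vit-2 (WBGene00006926, X 5101042 to 5106169) are on the plus strand with 5 exons each. vit-3 (WBGene00006927, X 3567355 to 3572549) and vit-4 (WBGene00006928, X 3558769 to 3563965) are tandem neighbours on the minus strand with 6 exons each. vit-5 (WBGene00006929, X 3403471 to 3408603, plus strand) has 6 exons, and vit-6 (WBGene00006930, IV 8261157 to 8266459, plus strand) has 5 exons and 2 annotated transcripts.

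The 250 bp upstream of each gene carry the elements for which these promoters are known, and they are printed here because the results turn on the sites they hold. Each runs 5′ to 3′ in the direction of transcription and ends at the base before the annotated start. Capitals mark TGATAA, the core GATA site, and TGTCAAT, the vitellogenin promoter element VPE1; TTATCA and ATTGACA are the same elements on the opposite strand.
vit-1 (chrX:7727639-7727888, plus strand): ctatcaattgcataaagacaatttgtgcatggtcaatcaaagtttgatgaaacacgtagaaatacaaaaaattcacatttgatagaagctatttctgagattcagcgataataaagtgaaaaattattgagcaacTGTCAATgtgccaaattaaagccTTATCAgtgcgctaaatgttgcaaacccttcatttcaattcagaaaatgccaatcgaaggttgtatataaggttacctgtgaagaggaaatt
vit-2 (chrX:5100792-5101041, plus strand): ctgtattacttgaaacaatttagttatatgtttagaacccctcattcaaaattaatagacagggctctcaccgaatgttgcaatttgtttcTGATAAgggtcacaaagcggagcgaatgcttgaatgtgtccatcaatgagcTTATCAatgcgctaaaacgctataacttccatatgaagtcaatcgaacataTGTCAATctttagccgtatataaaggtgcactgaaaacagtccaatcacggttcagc
vit-3 (chrX:3572550-3572799, minus strand): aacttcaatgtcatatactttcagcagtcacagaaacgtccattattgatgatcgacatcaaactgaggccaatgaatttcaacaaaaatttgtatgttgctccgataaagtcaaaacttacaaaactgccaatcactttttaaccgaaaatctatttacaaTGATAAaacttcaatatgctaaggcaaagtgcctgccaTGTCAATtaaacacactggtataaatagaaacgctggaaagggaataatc
vit-4 (chrX:3563966-3564215, minus strand): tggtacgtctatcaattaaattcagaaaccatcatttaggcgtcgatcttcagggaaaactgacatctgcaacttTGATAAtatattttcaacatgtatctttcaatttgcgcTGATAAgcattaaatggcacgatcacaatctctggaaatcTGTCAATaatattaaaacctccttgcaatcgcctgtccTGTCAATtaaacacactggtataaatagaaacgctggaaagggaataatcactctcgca
vit-5 (chrX:3403221-3403470, plus strand): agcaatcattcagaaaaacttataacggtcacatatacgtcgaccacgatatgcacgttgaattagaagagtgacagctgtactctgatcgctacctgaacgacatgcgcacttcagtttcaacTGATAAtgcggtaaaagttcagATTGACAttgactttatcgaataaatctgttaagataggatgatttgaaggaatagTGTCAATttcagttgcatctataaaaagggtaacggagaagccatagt
vit-6 (chrIV:8260907-8261156, plus strand): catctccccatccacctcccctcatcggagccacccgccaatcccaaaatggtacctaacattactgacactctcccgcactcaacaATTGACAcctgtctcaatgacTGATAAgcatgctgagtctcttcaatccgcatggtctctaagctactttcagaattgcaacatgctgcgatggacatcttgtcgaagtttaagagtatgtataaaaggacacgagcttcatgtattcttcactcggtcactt

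Every vit promoter held both elements. In the proximal promoter, taken as 250 bp before to 50 bp after the gene start and searched on both strands, TGATAA was found in 6 of 6 vit genes, with 8 sites in all, against 30.2% of all coding promoters. The looser GATA consensus WGATAR, which includes every TGATAA, was found in 6 of 6 vit genes with 12 sites, against 54.5% of all coding promoters. CTGATAA, the core of the vitellogenin promoter element VPE2 and a TGATAA with 1 more base, was found in 5 of 6, all but vit-3, against 8.15% of all coding promoters. TGTCAAT was found in 6 of 6 with 8 sites, against 5.77% of all coding promoters. VPE1 and VPE2 take their names from the vitellogenin promoters, so their presence there was known beforehand and is no finding of these data. A match describes the letters of the window and does not show that a protein was bound there.

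The sites sat close to the starts in all 6 genes. The TGATAA sites began 92 bp upstream of the start in vit-1, 159 and 108 bp in vit-2, 88 bp in vit-3, 175 and 137 bp in vit-4, 126 bp in vit-5 and 142 bp in vit-6. The TGTCAAT elements began 115 bp upstream in vit-1, 57 bp in vit-2, 50 bp in vit-3, 97 and 59 bp in vit-4, 104 and 48 bp in vit-5 and 163 bp in vit-6. These distances are not exactly comparable between genes. The annotated start lies 0 bp from the first coding base in vit-4, 1 bp in vit-2 and 9 to 16 bp in the others. In vit-1 and vit-6 the TGTCAAT lay farther from the start than the TGATAA, whereas in vit-2, vit-3, vit-4 and vit-5 it lay nearer. The paired elements are shared by few promoters: 362 of 19973 (1.81%) held both TGATAA and TGTCAAT, and 101 (0.506%) held both CTGATAA and TGTCAAT, among them 5 vit genes.

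**Figure D1:**
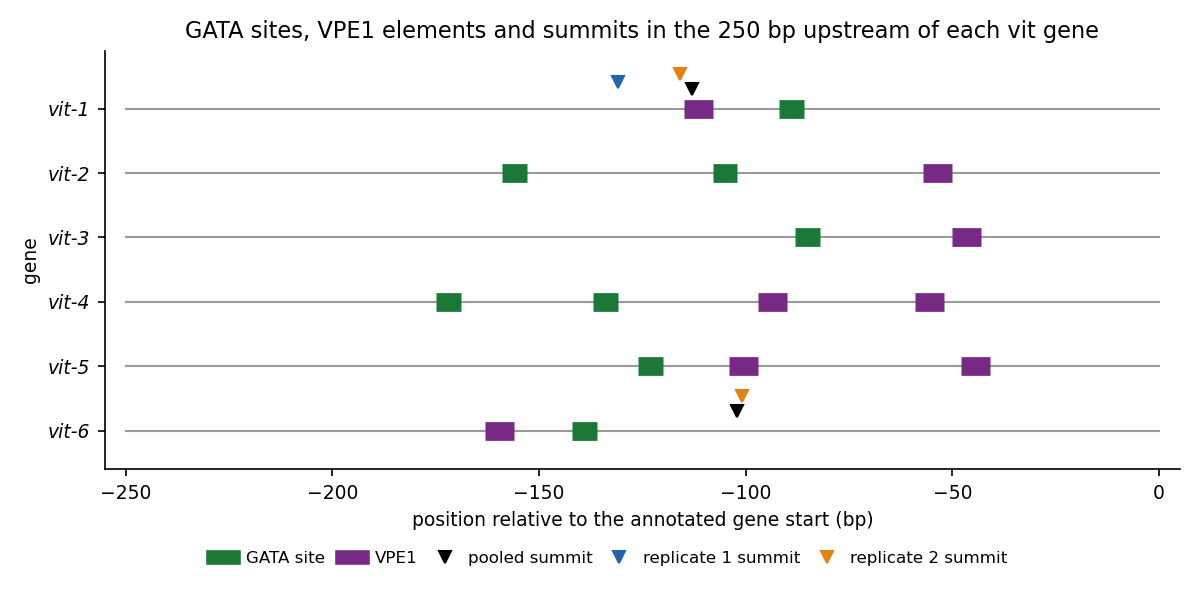
Positions of GATA sites (TGATAA, green) and VPE1 elements (TGTCAAT, purple) in the 250 bp upstream of each vit gene, in bp from the annotated start, with the summits of the pooled list (black), replicate 1 (blue) and replicate 2 (orange) that fell there. Summits appear over vit-1, in all 3 lists with background, and over vit-6, in the pooled list and that of replicate 2; vit-2 to vit-5 have sites and no summit.

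No vit gene had an IDR-passing ELT-2 summit in its promoter window at L3. The window, which ran from 1000 bp before each annotated transcript start to 500 bp after it, held such a summit in 0 of 6 vit genes, against 5323 of 19973 coding genes (26.7%). On chromosome X alone the count was 0 of 5 vit genes, against 774 of 2731 coding genes (28.3%). No IDR-passing summit had a vit start as its nearest coding start, whereas 28.8% of coding genes had a summit nearest to their start. None lay inside a vit gene. The share of all coding genes with a summit inside them is not given here, so that absence does not set the vit genes apart. The bodies of vit-3, vit-4 and vit-5 also hold much repeated sequence, described below, where reads may not be placed. With 6 genes, 3 of them near-identical copies, these counts describe the family and were not tested.

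Widening the view to 10 kb reached IDR-passing summits at every vit gene, which is the common case in this genome. Within 10 kb of the gene, 6 of 6 vit genes had an IDR-passing summit, against 75.6% of all coding genes, and 6 of 6 had a pooled-list summit, against 86.3%. The distance from the start to the nearest IDR-passing summit was 2082 bp for vit-1, 8288 bp for vit-2, 3901 bp for vit-3, 6280 bp for vit-4, 8285 bp for vit-5 and 5745 bp for vit-6. The median over all coding genes was 4178 bp, so vit-1 and vit-3 lay nearer to a summit than the middle gene of the genome and the other 4 lay farther. The share of coding genes whose nearest summit was at least as far ran from 32.6% for vit-2 and vit-5 to 63.5% for vit-1. Some distances rested on weak peaks or on 1 list. With the 9198 strongest peaks of a single replicate in place of the IDR-passing list, the vit-5 distance was 16003 bp in replicate 2 and 16013 bp in replicate 1, and 5 of 6 vit genes, all but vit-5, had a summit within 10 kb. In the stronger part of the IDR-passing list the vit-5 distance was 69202 bp. The vit-1 distance was 131 bp in replicate 1 alone and 2076 bp in replicate 2 alone.

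**Figure D2:**
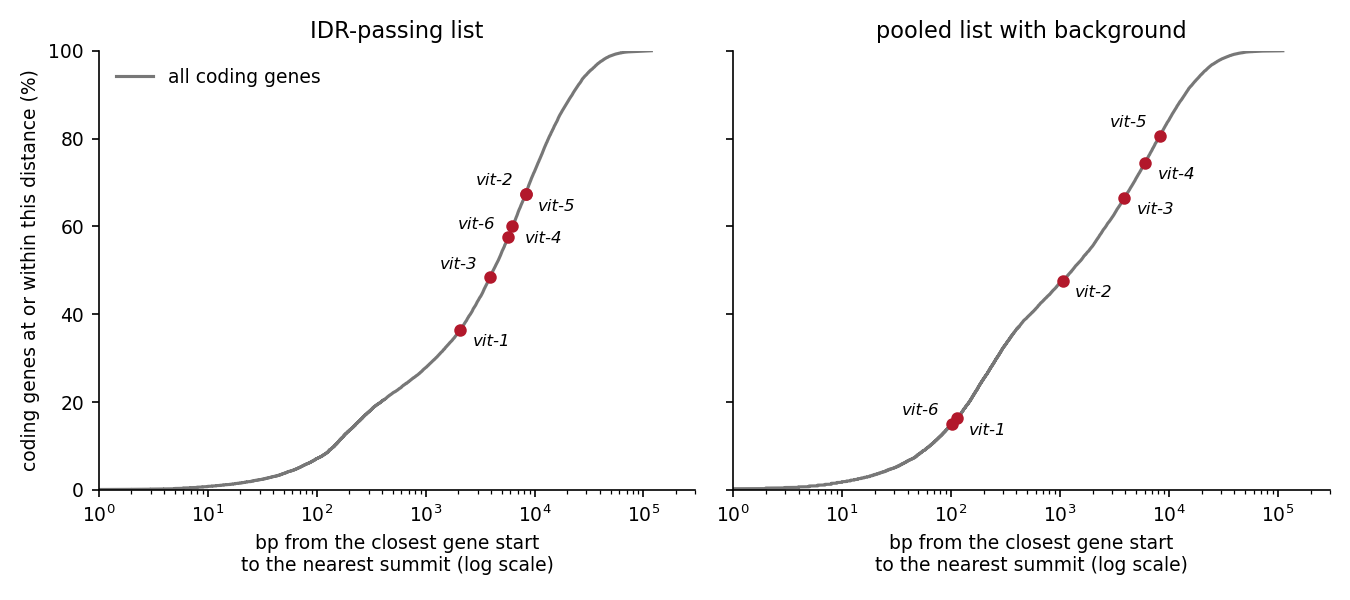
Share of coding genes (vertical axis, percent) whose start lies at or within a given distance of the nearest summit (horizontal axis, bp, log scale), for the IDR-passing list (left) and the pooled list with background (right), with the 6 vit genes as red points. In the IDR-passing list the vit genes lie between 2082 and 8288 bp; in the pooled list vit-1 and vit-6 move to 113 and 102 bp.

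Of the IDR-passing summits near the vit genes, none had a vit start as the nearest coding start. There were 15 distinct summits within 10 kb of a vit gene, 1 of them within reach of both vit-3 and vit-4, and their nearest coding starts belonged to 7 other genes. Of the 15, 7 were intergenic, 6 intronic and 2 exonic, and 8 had an rgs-7 start as the nearest coding start. Their signals ran from 75.6 to 1694.5 with a median of 322.9, and 11 had TGATAA within 100 bp. All 15 had a summit within 100 bp in each replicate's list. The IDR filter picks peaks whose ranks repeat between replicates, so that match was largely built into the choice of list. The same shares over all IDR-passing summits are not given here. These counts, and those for parts of the 15 given below, therefore do not set these summits apart from others. The nearest coding start was within 200 bp for 5 of them.

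**Figure D3:**
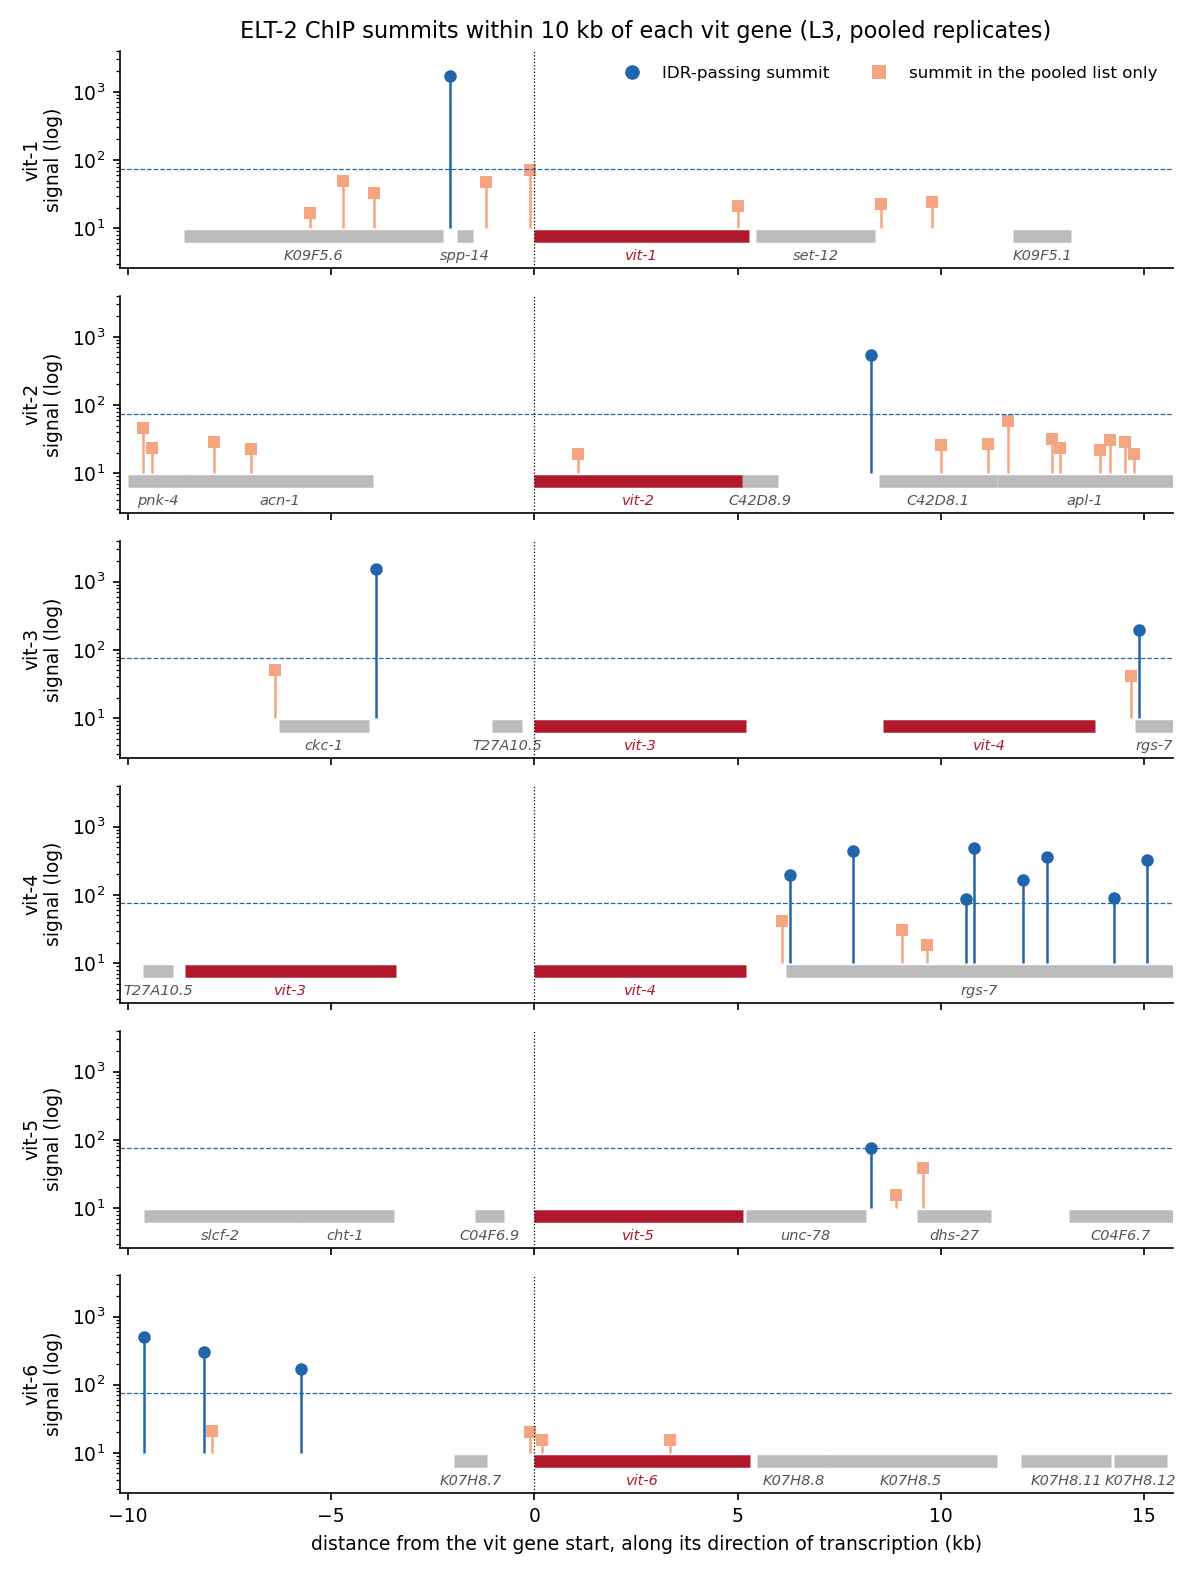
Summits within 10 kb of each vit gene (horizontal axis, kb from the vit start in the direction of transcription; vertical axis, the authors' signal in the pooled list, log scale), as blue circles where they passed IDR and orange squares where they did not. Red bars are vit genes, grey bars other coding genes (their height has no meaning), and the dashed line is the lowest IDR-passing signal, 74.97: the summit 113 bp upstream of vit-1 lies just under it, and the blue circles stand at neighbours such as spp-14, ckc-1 and rgs-7.

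The 2 strongest of these summits stood upstream of vit-1 and vit-3 but next to the starts of other genes. Upstream of vit-1, the summit at X 7725807 had a signal of 1694.5 and rank 75 in the pooled list, a signal of 741.2 and rank 81 in replicate 1, and a signal of 941.9 and rank 73 in replicate 2. It lay 2082 bp from the vit-1 start but 172 bp upstream of spp-14, a gene for a saposin-like protein, and 56 bp downstream of the start of the non-coding RNA gene K09F5.9. Upstream of vit-3, the summit at X 3576450 had a signal of 1543.8 and rank 102 in the pooled list, 672.2 and rank 115 in replicate 1, and 873.6 and rank 94 in replicate 2. It lay 3901 bp from the vit-3 start but 156 bp upstream of ckc-1, a predicted choline kinase gene that is transcribed away from vit-3. Proximity alone does not show which gene a summit acts on, and neither was tested.

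At vit-2 and vit-5 the nearest IDR-passing summit lay beyond the 3′ end of the gene. The summit at X 5109330, 3161 bp past the end of vit-2, had a signal of 535.7 and rank 1428 in the pooled list, 249.2 and rank 1254 in replicate 1, and 287.0 and rank 1581 in replicate 2. It lay 176 bp upstream of C42D8.1. The summit at X 3411756, 3153 bp past the end of vit-5, was the weakest of the 15, with a signal of 75.6 and rank 9157 of 9198 in the pooled list. It ranked 9658 in replicate 1, with a signal of 31.6, and 9755 in replicate 2, with a signal of 40.3. It lay 141 bp upstream of unc-78, the gene of an actin-disassembly factor, and 248 bp upstream of the microRNA gene cel-mir-271.

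The sequence under these neighbouring summits shows what the vit promoters can be set beside. Each stretch is 201 bases centred on the summit, on the strand of the neighbouring gene, with TGATAA in capitals on either strand. The summits near spp-14, ckc-1 and C42D8.1 each had 2 TGATAA sites, the number in the proximal promoters of vit-2 and vit-4, and at C42D8.1 they abut on opposite strands and form a palindrome. The weak summit near unc-78 had none.
spp-14 (chrX:7725707-7725907, plus strand): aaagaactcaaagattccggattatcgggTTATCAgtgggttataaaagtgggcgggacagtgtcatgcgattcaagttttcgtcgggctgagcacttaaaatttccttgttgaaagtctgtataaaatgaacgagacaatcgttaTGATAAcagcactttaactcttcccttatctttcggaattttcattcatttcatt
ckc-1 (chrX:3576350-3576550, plus strand): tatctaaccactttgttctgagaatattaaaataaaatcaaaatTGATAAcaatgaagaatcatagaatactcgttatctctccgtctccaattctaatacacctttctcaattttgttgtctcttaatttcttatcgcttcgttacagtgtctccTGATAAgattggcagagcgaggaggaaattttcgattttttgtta
C42D8.1 (chrX:5109230-5109430, plus strand): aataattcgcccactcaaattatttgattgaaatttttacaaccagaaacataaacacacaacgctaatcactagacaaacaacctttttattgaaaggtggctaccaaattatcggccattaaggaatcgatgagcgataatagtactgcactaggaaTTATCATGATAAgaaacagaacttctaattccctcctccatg
unc-78 (chrX:3411656-3411856, minus strand): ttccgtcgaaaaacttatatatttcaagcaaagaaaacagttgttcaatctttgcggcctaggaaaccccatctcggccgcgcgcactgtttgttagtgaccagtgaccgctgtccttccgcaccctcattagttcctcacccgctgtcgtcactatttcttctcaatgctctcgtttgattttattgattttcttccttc

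All 8 IDR-passing summits near vit-4 lay inside rgs-7, whose starts were also the nearest coding starts. This gene encodes a regulator of G protein signalling, has 8 annotated transcript starts and is transcribed toward the 3′ end of vit-4 from the opposite strand. Their pooled signals were 193.4 at X 3557685, 435.9 at X 3556139, 87.9 at X 3553356, 478.5 at X 3553151, 167.3 at X 3551950, 361.6 at X 3551358, 89.9 at X 3549704 and 322.9 at X 3548895. The summit at X 3556139 lay 33 bp downstream of an rgs-7 start, in an exon. The strongest, at X 3553151, ranked 1718 in the pooled list, 1715 in replicate 1 and 1723 in replicate 2, and 7 of the 8 had a TGATAA within 100 bp. The nearest to vit-4, at X 3557685, lay 1084 bp past its 3′ end and 9670 bp past that of vit-3. At least 8 IDR-passing summits within 10 kb were found for 2.98% of coding genes, against a median of 2.

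The 3 IDR-passing summits near vit-6 all lay upstream, in a stretch with no coding start within 4 kb of any of them. The summit at IV 8251559 had a pooled signal of 495.9 and rank 1626, 216.0 and rank 1583 in replicate 1, and 282.8 and rank 1624 in replicate 2, and held 2 TGATAA sites. The summit at IV 8253044 had a pooled signal of 299.3 and rank 3124, with ranks 3259 in replicate 1 and 3200 in replicate 2, no TGATAA, and a snoRNA gene, H09I01.2, starting 50 bp away. The summit at IV 8255412 had a pooled signal of 168.7 and rank 5371, with ranks 5474 in replicate 1 and 5531 in replicate 2, and no TGATAA. They lay 9598, 8113 and 5745 bp upstream of vit-6. The nearest coding starts were those of T09A12.1 (7147 bp from the first) and K07H8.7 (6960 and 4592 bp from the others), so these summits, unlike those near the other vit genes, lay neither within 200 bp of a coding start nor inside a coding gene.

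Below the IDR threshold, vit-1 had a summit on its own promoter in both replicates. The pooled summit at X 7727776, 113 bp upstream of the start, had a signal of 70.2 and rank 9558, under the lowest IDR-passing signal of 74.97, and a −log10 q of 2.74 against 2.93 for the lowest IDR-passing peak. Replicate 1 had a summit 131 bp upstream with a signal of 41.5 and rank 8018, and replicate 2 had one 116 bp upstream with a signal of 31.4 and rank 11282. The replicate summits lay near each other in position, and ranks from lists of different lengths were not compared. The pooled summit lay 1 bp from the middle of the TGTCAAT and 23.5 bp from the middle of the TGATAA printed for vit-1.

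vit-6 and vit-2 had weaker summits, none with a match in both replicate lists, and vit-3, vit-4 and vit-5 had none that were nearest to their own starts in any list. For vit-6, the pooled summit 102 bp upstream had a signal of 20.2, rank 23383 and a −log10 q of 0.196, replicate 2 had a match with a signal of 7.50 and rank 29418, and replicate 1 had none. It lay 37.5 bp from the middle of the vit-6 TGATAA. Other vit-6 summits, 180 bp downstream of the start in an intron and 3343 bp downstream in an exon, had pooled signals of 15.6 and 15.5; the intronic summit had a match in replicate 2 only and the exonic one in neither replicate. For vit-2, a pooled summit 1064 bp downstream of the start, in an exon, had a signal of 19.2 and rank 24333, with a match in replicate 1 of signal 10.6 and none in replicate 2. Replicate 2 also had 2 exonic summits in vit-6 with no match within 100 bp in the other lists, at ranks 28296 and 29134. The peak of the latter overlapped that of the pooled exonic summit. Replicate 1 alone had a summit 864 bp upstream of vit-2, with a signal of 12.4, and another 934 bp upstream of vit-1, with a signal of 11.5. Each of these weaker summits ranked 21747 or later in its list, far down lists that include background.

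The promoter counts in the lists with background stayed near or under those of other genes. In the pooled list 2 of 6 vit genes, vit-1 and vit-6, had a summit in the promoter window, against 44.6% of coding genes. In the list of replicate 1 it was 2 of 6, vit-1 and vit-2, against 44.9%, and in that of replicate 2 it was 2 of 6, vit-1 and vit-6, against 43.8%. Only vit-1 had a summit in the window in both replicate lists. The distance from the start to the nearest pooled summit was 113 bp for vit-1, 1064 bp for vit-2, 3901 bp for vit-3, 6081 bp for vit-4, 8285 bp for vit-5 and 102 bp for vit-6, against a median of 1298 bp over all coding genes.

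All vit starts but that of vit-6 lay in stretches between neighbouring pooled summits that were longer than the median stretch. Those of vit-3, vit-4 and vit-5 lay in the longest of them. The stretch that contains the starts of both vit-3 and vit-4 was 18.566 kb long, and 4.2% of the 29975 stretches between neighbouring pooled summits were at least as long. The stretch around the vit-5 start was 24.288 kb long, with 2.88% at least as long, against a median of 1.112 kb. A long stretch covers more starts than a short one, so these shares run low for stretches picked by a start they hold. Counted per gene, the nearest pooled summit was at least as far for 33.5% of coding genes at vit-3, 25.5% at vit-4 and 19.3% at vit-5. In replicate 1 these stretches measured 17.955 and 20.834 kb, and in replicate 2 they measured 18.609 and 24.295 kb, so the gap was present in each list. They were not free of sites: 23 TGATAA lay in the vit-3 and vit-4 stretch and 25 in that of vit-5. In the pooled list the stretches holding the starts of vit-2 (8.02 kb), vit-1 (5.131 kb) and vit-6 (0.282 kb) were shorter. Those of vit-2 and vit-1 still exceeded the median, with 8.44% and 12.1% of stretches at least as long. That order depended on the list. In replicate 1 the stretches measured 1.848 kb for vit-2, 7.875 kb for vit-1 and 31.354 kb for vit-6, the last above those of vit-3, vit-4 and vit-5, and in replicate 2 they measured 15.243, 5.134 and 0.266 kb. Between IDR-passing summits the stretches of vit-1 (48.111 kb) and vit-6 (34.362 kb) exceeded those of vit-5 (24.288 kb), vit-2 (21.896 kb) and vit-3 and vit-4 (18.765 kb).

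The number of GATA sites went with binding over all promoters, and the vit genes were not among the bound in their classes. Of coding genes with no TGATAA in the proximal promoter, 22.9% had an IDR-passing summit in the promoter window; the share was 29.6% with 1 site, 49.2% with 2 sites and 67.5% with 3 or more. vit-1, vit-3, vit-5 and vit-6 have 1 site, and vit-2 and vit-4 have 2 sites, 1269 genes being in that class. Of the 1628 promoters with CTGATAA, 49% had such a summit, with 0 of the 5 vit genes among them. Of the 362 promoters with both TGATAA and TGTCAAT, 139 (38.4%) had one, against 35.2% of the 5664 with TGATAA and no TGTCAAT. Of the 101 with CTGATAA and TGTCAAT, 52 (51.5%) had one. By number of TGATAA sites alone, most promoters with 1 site, as in vit-1, vit-3, vit-5 and vit-6, had no such summit. The class with 2 sites, that of vit-2 and vit-4, was close to evenly split, with 624 of 1269 genes bound. All vit genes but vit-3 also belonged to the class with CTGATAA and TGTCAAT, of which 51.5% were bound. Whether the lack of a summit is the more common state therefore depends on the class chosen.

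**Figure D4:**
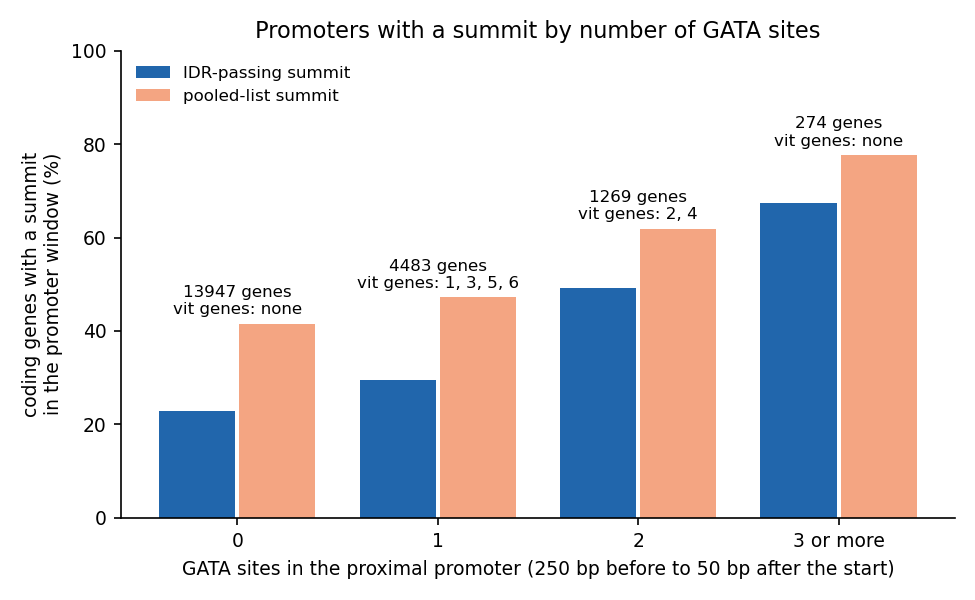
Share of coding genes (vertical axis, percent) with a summit in the promoter window, by the number of TGATAA sites in the proximal promoter (horizontal axis), for the IDR-passing list (blue) and the pooled list with background (orange), with the number of genes and the vit genes of each class above the bars. The IDR-passing share is 22.9% at 0 sites and 67.5% at 3 or more.

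GATA sites over the whole vit loci lay near an IDR-passing summit in 0 to 33.3% of cases, with the genome at 7.54%. Within the genes and 10 kb on either side, 27 to 31 TGATAA sites were counted per locus. Those within 100 bp of an IDR-passing summit were 2 of 29 at vit-1, 2 of 28 at vit-2, 3 of 30 at vit-3, 10 of 30 at vit-4, 0 of 27 at vit-5 and 2 of 31 at vit-6, against 7955 of 105444 in the nuclear genome. The sites so placed at vit-4 were those at the rgs-7 summits. vit-5 was the only locus with none.

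The vit promoters can be set beside the 5 coding genes with the most GATA sites among those with no IDR-passing summit. F43G6.17 had 5 TGATAA sites in the proximal promoter, and C50A2.3, F56C11.5, T01D1.8 and T19E7.6 had 4 each. Pooled-list summits lay in the promoter windows of F43G6.17 (100 bp from the start), T19E7.6 (94 bp) and C50A2.3 (801 bp), as at vit-1 and vit-6. F56C11.5 and T01D1.8 had none there, as at vit-2, vit-3, vit-4 and vit-5. These genes hold more sites than the vit genes, which have 1 or 2, and they were picked for having no IDR-passing summit.

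The vit genes are in part near-identical copies, and reads from repeated sequence may not be placed by an aligner. The predicted proteins of vit-3 and vit-4 were 98.7% identical, those of vit-4 and vit-5 98.1%, of vit-3 and vit-5 97.9% and of vit-1 and vit-2 93.9%, whereas vit-6 was 29.6 to 30.7% identical to the others. The proteins are 1603 to 1650 residues long. Their 250 bp upstream were far less alike, at 50.7 to 63.2% identity, with vit-3 and vit-4 the closest pair.

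Repeated sequence covered the bodies of vit-3, vit-4 and vit-5 but little of their upstream regions. The share of positions whose 36-base sequence occurs once in the genome was 80.8% over the gene for vit-1, 80.2% for vit-2, 21.0% for vit-3, 17.5% for vit-4, 42.8% for vit-5 and 100% for vit-6, against a median of 100% over coding genes. Over the 1000 bp upstream it was 98.5% for vit-3, 97.6% for vit-4 and 100% for the other 4 genes. Over the 500 bp from the start it was 14.4% for vit-3, 14.2% for vit-4 and 82.2% for vit-5. Of the 18.566 kb stretch that holds vit-3 and vit-4, 54.6% of positions were unique, and of the 24.288 kb around vit-5, 87.9%. How long the reads were and how those matching several places were treated is not given in the sources used here, and the part of repeated sequence in the missing summits was not tested. Over the 250 bp upstream, where all 8 TGATAA sites lie, the unique share was 94% for vit-3, 90.4% for vit-4 and 100% for the other 4 genes.

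**Figure D5:**
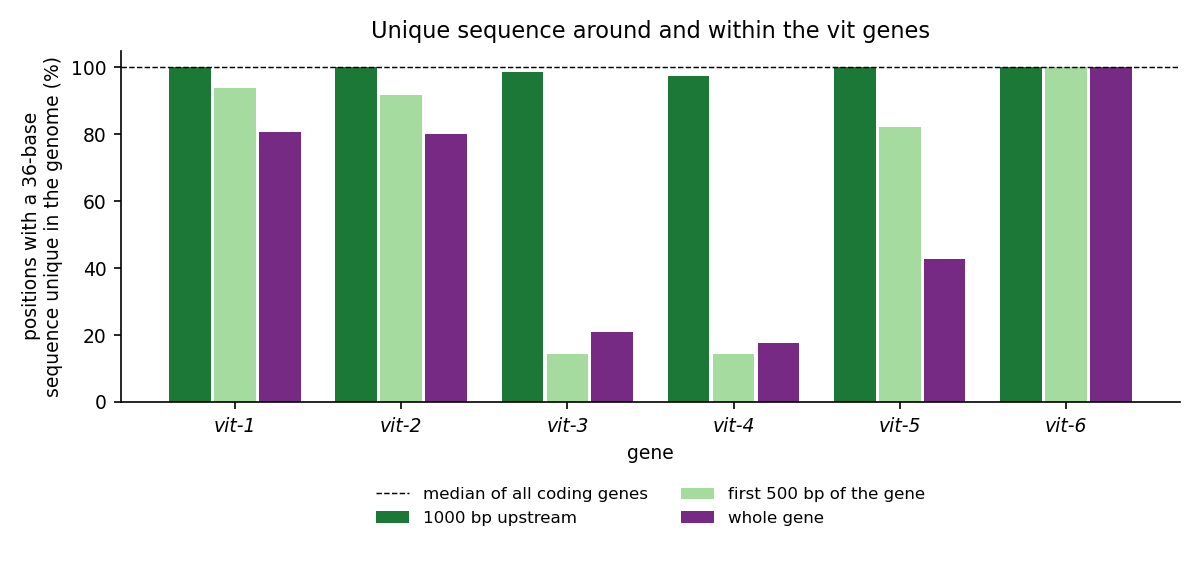
Share of positions (vertical axis, percent) whose 36-base sequence occurs once in the genome, for each vit gene over the 1000 bp upstream (dark green), the 500 bp from the start (light green) and the whole gene (purple), with the median of all coding genes as a dashed line at 100%. The upstream bars reach at least 97.6% in each gene, while the gene bars of vit-3 and vit-4 are 21.0% and 17.5%.

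A hand-picked list of 22 genes known to regulate vit transcription or to assemble and take up yolk was read in the same way. Of these, 19 had a pooled-list summit in the promoter window, against 44.6% of coding genes. An IDR-passing summit was found there for 15 (68.2%), against 26.7% of coding genes. Among the 15 regulators the count was 11 (73.3%), and among the 7 genes of assembly and uptake it was 4 (57.1%). The list was drawn up with earlier results of these data known, so its count describes these 22 genes only and supports no statement about yolk genes or their regulators in general. In 2 of the 15, sma-2 and rict-1, the strongest summit in the window lay nearest to the start of another gene.

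Among the regulators, summits were found at homeobox, GATA, zinc-finger and signalling genes. ceh-60, the PBX-type homeobox gene known as an activator of vit genes, had a signal of 807 and rank 627, with the summit 654 bp upstream of its start. Its partner unc-62, a MEIS-type homeobox gene, had 395 at 280 bp downstream. elt-7, a GATA factor that shares functions with elt-2, had 349 at 46 bp upstream. pqm-1, a zinc-finger factor, had 509, skn-1, the Nrf-type stress factor, had 281, daf-16, the FOXO factor of insulin signalling, had 210, and mab-3, which represses yolk genes in males, had 175 with no TGATAA within 100 bp. In the TGF-β pathway of body size, sma-3, a SMAD gene, had 369 at 179 bp upstream. sma-2, also a SMAD gene, had 3 IDR-passing summits in its window, the nearest of them 13 bp from a sma-2 start. The strongest of the 3 had 1019 and lay nearest to the start of ugtp-1. sgk-1, a kinase gene downstream of TORC2, had 514, and rict-1, which encodes Rictor, the defining TORC2 subunit, had 95.4, nearest to the start of gfm-1. Like that of mab-3, the rict-1 summit had no TGATAA within 100 bp.

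In the genes of assembly and uptake, dab-1, an endocytic adaptor, had a signal of 989, also with no TGATAA within 100 bp. rme-1, a recycling factor, had 418, dsc-4, the microsomal triglyceride transfer protein that loads lipid onto lipoproteins, 347, and chc-1, the clathrin heavy chain, 179. rme-2, the yolk receptor of oocytes, had no summit in its window in the pooled list, and its nearest IDR-passing summit was 60927 bp away. rme-6 and rme-8, endocytic factors, and lin-29 and sma-4 among the regulators, had pooled summits only. dbl-1, the BMP-like ligand, had neither. elt-2 itself had no summit within its window, and in each of the 4 lists it lay in a stretch of at least 83.7 kb without one. The transgene also carries elt-2 sequence, and its part in the missing summits was not tested.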

How the data were processed

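ChIP-seq of GFP-tagged ELT-2 was measured in 2 biological replicates of L3 larvae, which form 1 group per the labels. The authors deposited 4 peak lists on ce11: replicate 1, replicate 2, both replicates pooled, and IDR-passing. Each peak has a deposited signal (the authors' value against a control, with a scale set by each list), a deposited −log10 q and a deposited summit offset from the peak start, from which the summit was taken. Not given in the sources used here were aligner, peak caller, versions, read length and IDR threshold. Peak lists hold no counts of reads, so the depth is unknown and no counting interval can be given. Lists on ce10 were not used.

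Summits on the nuclear chromosomes were assigned with the WBcel235 annotation (Ensembl release 115) and sequences were read from the RefSeq copy of the same assembly. The promoter window was 1000 bp upstream to 500 bp downstream of any transcript start, and the radius was 10 kb from the gene's ends. Summits within 100 bp were matched between lists. Motifs were sought on both strands in 250 bp before to 50 bp after the gene start. Unique sequence was counted with 36 bases, and with 50 and 100 bases as alternatives. Protein and DNA identities came from global alignments of the annotated coding sequences.

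No test was run. Counts stand beside the share of all 19973 coding genes. Alternatives were other windows and radii, the nearest start only, the stronger part of the IDR-passing list, the whole pooled list and each replicate alone. The named genes were the vit genes, the genes nearest to the 15 summits, the yolk list, and the 5 unbound genes with the most TGATAA sites; ugtp-1 and gfm-1 were named after their values were seen. The members and lists were chosen with earlier results of these data known, and the paired motifs, the occupied sites of whole loci and the unique share of stretches were added after values were seen. The steps were tested on planted data. The work used Python 3.11.15, numpy 2.4.6, pandas 2.3.3, biopython 1.88 and matplotlib 3.10.9.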

Additional observations from a re-analysis of the deposited data

How the results depend on the processing

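Leaving out a replicate meant taking the 9198 strongest peaks of the other. The number of vit genes with an IDR-passing summit in the promoter window was then 0 to 1, the 1 being vit-1 without replicate 2. It was 2 with the whole pooled list and 0 with the stronger part of the list, the other windows and the nearest start only. The number with a summit within 10 kb, 6, was 5 without either replicate, and 0 when a vit start had to be the nearest. The 15 distinct summits became 13 to 15 without a replicate, 9 in the stronger part of the list, 47 in the pooled list, 6 within 5 kb, 24 within 20 kb and 0 where a vit start had to be the nearest. The pooled-list count in the window, 2, became 1 when a summit in both replicate lists was required.

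The distance to the nearest summit without a replicate was 131 to 2076 bp for vit-1, 8288 to 8292 bp for vit-2, 3912 to 3920 bp for vit-3, 6304 to 6307 bp for vit-4, 16003 to 16013 bp for vit-5 and 5712 to 5745 bp for vit-6. In the stronger part of the list it was 7826 bp for vit-4, 69202 bp for vit-5 and 8113 bp for vit-6. In the whole pooled list it was 113 bp for vit-1, 1064 bp for vit-2, 6081 bp for vit-4 and 102 bp for vit-6. With 100-base sequences the unique share of the window was 83.3% for vit-3 and 82.7% for vit-4, against 70.5% and 69.8% with 36 bases. TGATAA was present in 6 of 6 vit promoters at each window length. The share of all coding promoters with it rose from 30.2% with 250 bp before the start to 46.2% with 500 bp and 67.6% with 1000 bp.

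No paired analysis was possible because the samples form 1 group. Depth is unknown, so a summit missing from a list does not show that ELT-2 was absent, and 6 genes from 1 stage give no estimate of variation between stages.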
